A study of Homo sapiens with 6 samples.

Results

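Nutlin-3 was compared directly with 5-fluorouracil (5FU) in the human colorectal carcinoma cell line HCT116, long established in culture, across all genes that the arrays measured well enough. The comparison set the 2 arrays labelled Nutlin 3R against the 2 labelled 5FU. It covered the 17841 genes, of 19488 named on the array, that had at least 2 probe sets with a mean over all arrays above 4.73, the median of all probe sets. The genes were chosen by level alone, and no difference between the drugs was used directly to choose them. That mean includes the drug arrays, so a probe set could pass through the drug after which it was high.

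RNA was hybridised to Human Exon 1.0 ST arrays from Affymetrix. A gene has many probe sets on this array, most of them within single exons. The series concerns genes whose loss is lethal together with Nutlin-3, and it holds 6 arrays. All groups were the p53 wild-type line written HCT116 +/+ in the titles, collected at 12 h: 2 control arrays, labelled as untreated while the design text names DMSO, 2 arrays after Nutlin-3, given as Nutlin 3R in the labels and Nutlin-3 in the design text, and 2 arrays after 5FU. The sources used here give no dose, and the labels and the design text name different RNA kits. Nothing says that the replicates were separate cultures, so the p-values reflect the spread among these samples alone, and that spread may be technical. In RNA from whole cultures, fewer cells in one phase of the cell cycle and less RNA per cell cannot be told apart.

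Nutlin-3 occupies the pocket of MDM2 that binds p53 and so stabilises p53 without damaging DNA. 5FU is a pyrimidine analogue whose metabolites block thymidylate synthase and enter RNA and DNA, and p53 is activated as part of the response to that damage. Stabilised p53 induces CDKN1A, which encodes the cyclin-dependent kinase inhibitor p21. Cells held in G1 by p21 keep E2F target genes low through RB and the DREAM complex, whereas cells arrested within S phase go on transcribing replication genes.

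All levels below are deposited log2 expression values, averaged over the probe sets of a gene above the filter. A difference is Nutlin-3 minus 5FU on the log2 scale, and a called gene has a Benjamini-Hochberg adjusted p below 0.05 in limma. Across genes the Nutlin-3 replicates correlated at r = 0.967 and the 5FU replicates at r = 0.981, and arrays of different drugs at 0.92 to 0.962. Residual SDs had a median of 0.161 over genes. The epithelial keratin KRT8 lay between 11.14 and 11.31 on the 6 arrays. The differentiation markers KRT20 (5.52 to 5.89) and CDH17 (5.05 to 5.55) rested on 7 of 12 and 4 of 22 probe sets. Only probe sets above the filter enter a gene value, so its mean over the 6 arrays lies above the filter by construction. Over all their probe sets KRT20 lay at 4.49 to 4.79 and CDH17 at 3.55 to 3.92. Limma called 0 of the 12 colonic, 0 of the 8 fibroblast and 0 of the 4 blood markers tested, with medians of 0.012, -0.033 and 0.26 and with 1, 0 and 1 at an unadjusted p below 0.05. The fibroblast marker LUM had no probe set above the filter. The fibroblast marker FAP rested on 3 of 32 probe sets and the blood marker PTPRC on 5 of 47, but COL1A1 on 59 of 61.

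Most genes that separated the drugs were lower after Nutlin-3 than after 5FU, and 28 of these were genes of DNA replication and of the G1/S transition. Limma called 113 of 17841 genes, 0.633% of those tested. Of these, 102 were lower after Nutlin-3 (0.572%) and 11 were higher (0.0617%). At least 2-fold differences were found in 93 of the lower genes and 7 of the higher genes, and 18 of the lower genes differed at least 4-fold. Over all genes tested, called or not, 256 were at least 2-fold lower after Nutlin-3 and 14 at least 2-fold higher, while the median difference was -0.00518. The arrays of the drugs did not overlap in any called gene. Over all genes, both Nutlin-3 arrays lay below both 5FU arrays in 25.2% and above both in 20.8%. At an unadjusted p below 0.05 there were 2377 of the 17841 genes, in either direction.

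For a single gene an exact permutation p (two-sided, 2 against 2 arrays) is at least 0.333, so calling a gene depends on limma's pooling of variance over genes. The control arrays entered the spread and the filter but not the difference, and the 4 drug arrays fitted alone gave 104 calls, 99 lower and 5 higher, of which 80 were among the 113. The count was 9 without Nutlin-3 replicate 1, 51 without Nutlin-3 replicate 2, 18 without 5FU replicate 1 and 3 without 5FU replicate 2. Quantile normalization of the gene values gave 316 lower and 100 higher genes, so 76% of calls were lower, against 90.3% without it.

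**Figure D1:**
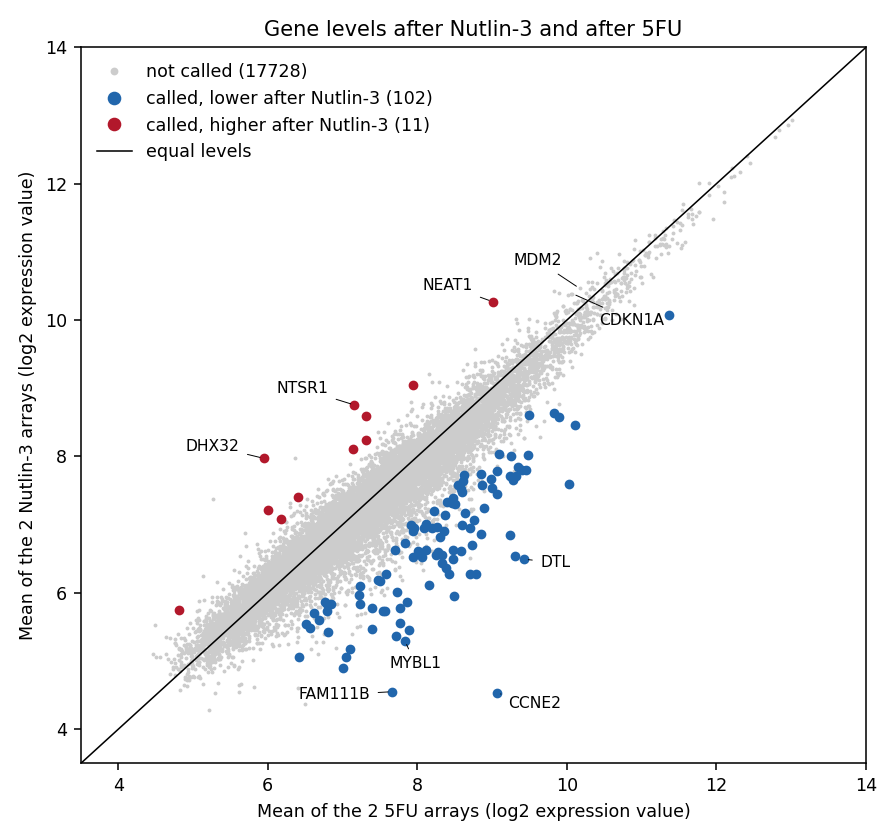
Mean log2 expression value of each of the 17841 genes on the 2 Nutlin-3 arrays (vertical) against the 2 5FU arrays (horizontal), with called genes in colour and the line of equal levels in black. The 102 called lower genes lie under the line, CCNE2 farthest from it, the 11 called higher genes lie above it, and MDM2 and CDKN1A lie close to it.

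CCNE2, which encodes cyclin E2, a partner of CDK2 at the start of S phase, had the largest difference of any gene. Its values were 4.30 and 4.77 on the Nutlin-3 arrays and 8.77 and 9.36 on the 5FU arrays. The Nutlin-3 arrays lay far below the 5FU arrays, and the controls, at 7.78 and 7.28, lay between them. The difference was -4.53 ± 0.27 (SE), which is 23.1-fold (limma adjusted p = 0.00502). The Nutlin-3 mean of 4.53 was below the filter of 4.73, although single probe sets read lower, such as 3145119 at 1.85 and 1.92. The size of this difference is less certain at such low levels.

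FAM111B, a trypsin-like protease, also had a Nutlin-3 mean (4.55) below the filter, at 4.30 and 4.80 after Nutlin-3 and 7.52 and 7.81 after 5FU (8.64-fold, adjusted p = 0.00502). Its control arrays, at 6.98 and 6.78, again lay between the drugs. DTL, the substrate adaptor that marks the licensing factor CDT1 for destruction in S phase, was at 6.33 and 6.65 after Nutlin-3 and at 9.36 and 9.51 after 5FU (7.68-fold, adjusted p = 0.00604). EXO1, an exonuclease of mismatch repair and of DNA end resection, was at 6.39 and 6.70 against 9.13 and 9.49 (6.79-fold, adjusted p = 0.00944). Control values of DTL (9.24 and 8.68) and EXO1 (9.28 and 8.72) were near those after 5FU.

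Regulators of transcription formed a further part of the 12 largest lower genes. MYBL1, which encodes the transcription factor A-MYB, was at 5.17 and 5.42 after Nutlin-3 and at 7.67 and 8.002 after 5FU, with control arrays at 6.79 and 6.27 between them (5.83-fold). E2F8, an atypical repressor of the E2F family that is itself switched on in S phase, was at 5.86 and 6.05 against 8.38 and 8.61 (5.81-fold). TCF19, a factor expressed at the G1/S boundary, was at 6.21 and 6.34 against 8.66 and 8.91 (5.69-fold). In each of these genes the gap between the drugs was several times the gap between replicates, and the adjusted p-values were 0.00944, 0.00502 and 0.00542.

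Firing and licensing of origins and the checkpoint that watches over them supplied the others. CDC6, which loads the MCM helicase, was at 7.45 and 7.74 after Nutlin-3 and 9.87 and 10.18 after 5FU (5.38-fold, adjusted p = 0.00649). MCM10, which activates the loaded helicase, was at 6.60 and 7.10 against 9.07 and 9.42 (5.26-fold, adjusted p = 0.0114). CLSPN, the adaptor through which ATR activates CHEK1, was at 5.35 and 5.57 against 7.76 and 8.01 (5.38-fold, adjusted p = 0.0287). The phosphatase CDC25A, which activates CDK2, differed 5.37-fold (adjusted p = 0.00944), and the WD-repeat protein WDR76 5.13-fold (adjusted p = 0.0231). For CDC6, MCM10, CLSPN and WDR76 the 5FU arrays lay among or next to the control arrays, and for CDC25A slightly above them.

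**Figure D2:**
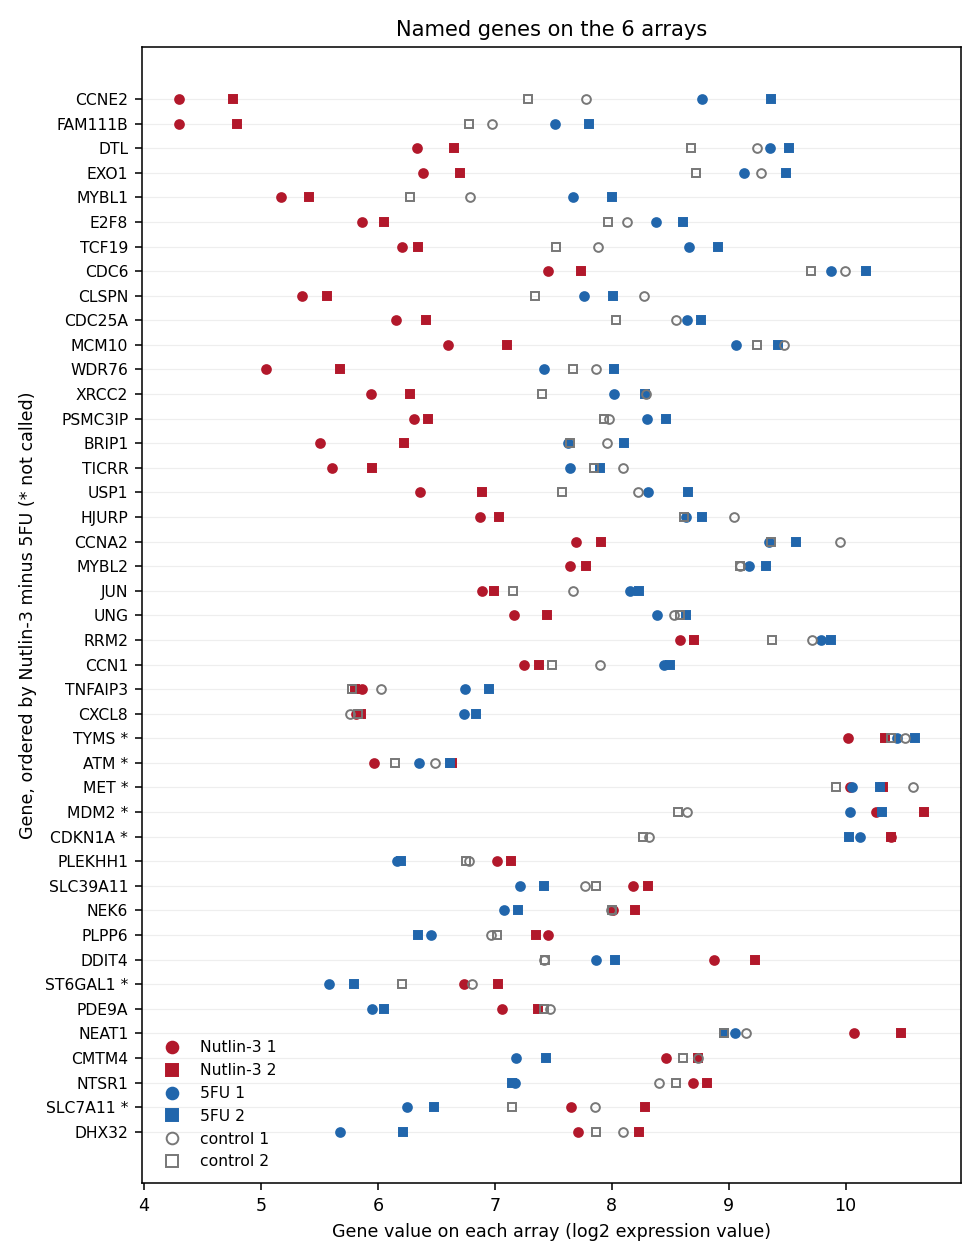
Value of each named gene on each of the 6 arrays (log2 expression value, horizontal), with genes ordered by Nutlin-3 minus 5FU and genes that were not called marked with an asterisk. Filled symbols are the drugs and open symbols the controls. In the lower genes at the top the red Nutlin-3 symbols stand apart to the left, and in DHX32, NTSR1, CMTM4 and PDE9A near the bottom it is the blue 5FU symbols that stand apart from the other arrays.

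Of 54 tested genes of DNA replication and G1/S, 28 were called lower after Nutlin-3 (51.9%, against 0.572% of all genes) and 0 higher, and the median difference was -1.15 against -0.00518 over all genes. All 54 differences were below 0, and in all 54 both Nutlin-3 arrays lay below both 5FU arrays, against 25.2% of all genes. The median over the 54 genes was 7.28 and 7.59 on the Nutlin-3 arrays, 8.49 and 8.82 on the 5FU arrays and 8.70 and 8.56 in the controls. The Nutlin-3 arrays were thus the low ones, and the 5FU arrays lay to both sides of the controls. Leaving out Nutlin-3 replicate 1, Nutlin-3 replicate 2, 5FU replicate 1 or 5FU replicate 2 left 5, 15, 9 or 3 of the 54 called, with all 54 differences below 0 each time. Leaving out a single drug array could not change a sign, because the groups did not overlap in any of the 54. With quantile normalization, or with the median over probe sets in place of the mean, 53 of the 54 were below 0.

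By role, the called members began with the cyclins E, CCNE2 and CCNE1 (-1.61), and the E2F genes E2F8 (-2.54) and E2F2 (-1.49). Among licensing and origin-firing factors, CDC6, MCM10, ORC1 (-2.15), GINS2 (-1.68), ORC6 (-1.45), MCM2 (-1.32), GINS3 (-1.14), CDT1 (-1.11), CDC45 (-1.03) and MCM5 (-0.89) were lower. At the fork, the polymerase delta subunit POLD3 (-1.81), the flap endonuclease FEN1 (-1.50) and the clamp loader subunits RFC4 (-1.60), RFC3 (-1.47) and RFC5 (-1.31) were lower. So were the chromatin assembly factors CHAF1B (-1.60), ASF1B (-1.46) and CHAF1A (-1.03), the DNA methylation cofactor UHRF1 (-1.25), the chromatin ATPase ATAD2 (-1.99) and RRM2 (-1.19), the small subunit of ribonucleotide reductase. FAM111B, DTL and WDR76 complete the 28.

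Members of the same complexes did not all pass. RRM1, the large subunit of ribonucleotide reductase, differed by -1.17 (adjusted p = 0.119), the sliding clamp PCNA by -0.92 (adjusted p = 0.192), MCM6 by -0.77 (adjusted p = 0.247) and the polymerase alpha subunit POLA1 by -0.59 (adjusted p = 0.32). Of the 54, the values nearest to 0 were those of E2F1 (-0.43, adjusted p = 0.236), the polymerase delta subunit POLD1 (-0.26, adjusted p = 0.449) and the ligase LIG1 (-0.07, adjusted p = 0.846). Of 56 listed replication-dependent histones, whose mRNAs are made in S phase, 18 were tested. Limma called 0 of the 18, with 3 lower and 1 higher at an unadjusted p below 0.05. Their median difference was -0.07, and values ran from -0.68 for H2BC15 to 0.51 for H2AC25. The median level over the 18 histone genes was 7.02 and 7.21 after Nutlin-3 and 6.98 and 7.22 after the other drug. In the controls it was 8.56 and 8.001, above both drugs. The histone gene copies are near-identical and may share signal, and their mRNAs lack poly(A) tails.

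Promoters of the replication genes are shown because 28 of these genes were lower together. The E2F motif was searched as TTTCCCGC, TTTGGCGC, TTTCGCGC or TTTGCCGC on either strand of 300 bases, from 250 before to 50 after the start, in RefSeq promoters on GRCh38.p14. It stood in 4.23% of the 19847 promoters of 13866 tested genes that matched by symbol, in 25.3% of the 99 promoters of 81 called lower genes and in 0 of the 12 promoters of 8 called higher genes. Among called replication genes it stood in 10 of 26 promoters (38.5%), belonging to 9 of 21 genes, and among all tested replication genes, called or not, in 23 of 56 (41.1%). Below are the 60 bases before the start of those in which the whole motif lies within this stretch, 5′ to 3′ on the strand of the gene, with the motif in capitals.
DTL (chr1:212035688-212035747, plus strand): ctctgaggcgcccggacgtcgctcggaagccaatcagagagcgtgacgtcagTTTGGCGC
GINS2 (chr16:85688955-85689014, minus strand): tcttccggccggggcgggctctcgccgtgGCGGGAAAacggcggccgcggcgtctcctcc
E2F2 (chr1:23531234-23531293, minus strand): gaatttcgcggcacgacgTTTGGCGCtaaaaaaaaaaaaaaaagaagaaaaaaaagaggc
RFC3 (chr13:33818089-33818148, plus strand): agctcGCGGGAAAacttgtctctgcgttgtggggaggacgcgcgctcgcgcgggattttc
UHRF1 (chr19:4909441-4909500, plus strand): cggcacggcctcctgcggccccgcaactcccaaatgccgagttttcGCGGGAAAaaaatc
CDT1 (chr16:88803729-88803788, plus strand): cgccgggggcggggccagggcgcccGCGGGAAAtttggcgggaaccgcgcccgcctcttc

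The motif began 8 bases before the start in DTL, whose gene value differed by -2.94, 14 before it in UHRF1, 31 in GINS2, 35 in CDT1, 42 in E2F2 and 55 in RFC3. A match is a description of the letters, not evidence of binding. The CCAAT box, searched as CCAAT on either strand, stood in 61.6% of the promoters of called lower genes and in 34.4% of all. The cell-cycle homology region (CHR), searched as TTTGAA or TTCGAA on either strand, stood in 24.2% and 12.8%. The TATA box, TATAAA on either strand, stood in 3.03% and 8.18%. No motif searched contains another.

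**Figure D3:**
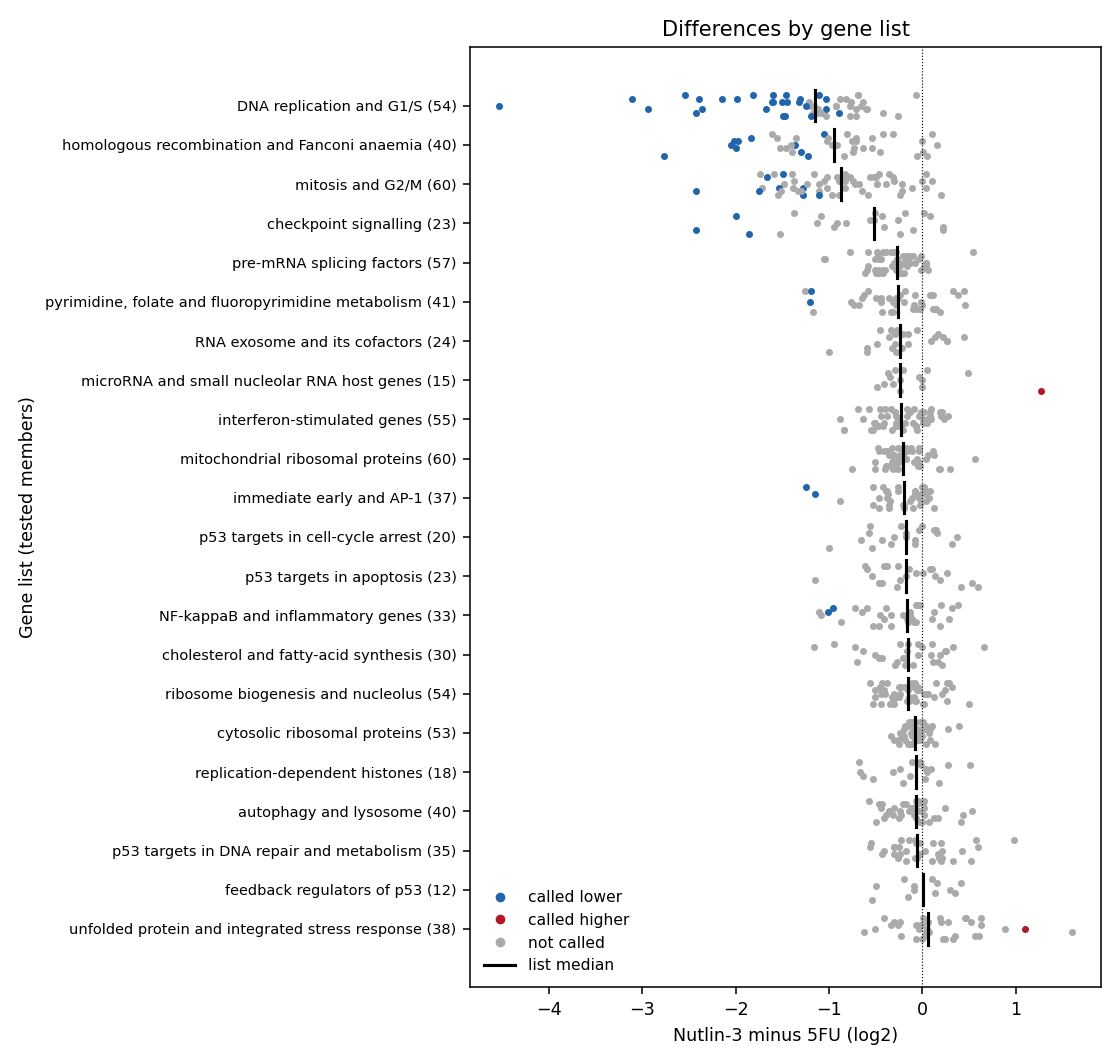
Nutlin-3 minus 5FU (log2, horizontal) of each tested member of each gene list, with called genes in colour and the median of the list as a black bar. The replication list lies wholly to the left of 0 with a median of -1.15, and the p53 target lists lie around 0 with no called member.

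Of 60 tested mitosis and G2/M genes, 8 were called lower (13.3%) and 0 higher, and the median was -0.87. In all, 56 of the 60 differences were below 0. In 49 both Nutlin-3 arrays lay below both 5FU arrays, against 25.2% of all genes. At an unadjusted p below 0.05, 43 were lower, against 2377 of all 17841 genes in either direction. Besides CDC25A they were HJURP, the chaperone that deposits the centromeric histone (6.87 and 7.04 after Nutlin-3, 8.63 and 8.77 after 5FU, 3.36-fold, adjusted p = 0.0164), and CCNA2, cyclin A2 (7.69 and 7.91 against 9.34 and 9.58, 3.16-fold, adjusted p = 0.0342). The other members called were the B-MYB gene MYBL2 (2.9-fold, adjusted p = 0.011), the kinesins KIF2C (-1.49) and KIF23 (-1.28), the transcription factor FOXM1 (-1.28) and the condensin subunit NCAPH (-1.11). In HJURP, CCNA2 and MYBL2 the replicates of each drug lay close to each other and the drugs did not overlap. The median level over the 60 genes was 6.88 and 7.25 after Nutlin-3 and 7.89 and 8.05 after 5FU. In the controls it was 8.76 and 8.35, above both drugs.

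A few mitotic genes, picked after their values were seen, lay near 0, while others that act in mitosis, such as HJURP and KIF2C, were called lower. A value near 0 does not mean a level equal to the controls. The mitotic cyclin CCNB1 differed by -0.003, the kinases PLK1 by 0.04 and AURKA by 0.10, and the anaphase activator CDC20 by -0.11, none of them called. The CHR motif stood in 39 of 66 promoters of tested mitosis genes (59.1%), and of the 7 called mitosis genes with a promoter in the table it stood in 2, HJURP and KIF23. In the 60 bases before the start of KIF23, written the same way with the CHR in capitals, it began 55 bases before the start.
KIF23 (chr15:69414289-69414348, plus strand): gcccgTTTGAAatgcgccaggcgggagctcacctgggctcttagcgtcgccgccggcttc

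Leaving out Nutlin-3 replicate 1 or 5FU replicate 2 left 0 of the 60 mitosis genes called, and leaving out Nutlin-3 replicate 2 or 5FU replicate 1 left 3 or 1. With quantile normalization 29 of the 60 were called.

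Homologous recombination and Fanconi anaemia genes, which repair broken and stalled forks, were the list with the next highest share of calls. Of 40 tested, 10 were called lower (25%) and 0 higher, with a median of -0.94. PSMC3IP, a cofactor of strand exchange, was at 6.31 and 6.43 after Nutlin-3 and at 8.30 and 8.46 after 5FU (4.04-fold, adjusted p = 0.00502). XRCC2, which acts in homologous recombination, was at 5.94 and 6.28 against 8.02 and 8.28 (4.12-fold, adjusted p = 0.0435), and the helicase BRIP1 at 5.51 and 6.23 against 7.62 and 8.10 (3.99-fold, adjusted p = 0.0403). The lower values were those after Nutlin-3 in each case, with no overlap.

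The other recombination genes called were EXO1, RAD54L (-1.98), the helicase BLM (-1.83), BRCA2 (-1.37), the nuclease subunit EME1 (-1.30), FANCG (-1.23) and FANCA (-1.05). BRCA1 differed by -1.02 (adjusted p = 0.12), PALB2 by -0.54 (adjusted p = 0.432) and RAD50 by 0.15 (adjusted p = 0.844). Without Nutlin-3 replicate 1, Nutlin-3 replicate 2, 5FU replicate 1 or 5FU replicate 2 the 10 calls became 1, 6, 2 or 0, and with quantile normalization 19.

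In checkpoint signalling 3 of 23 genes were called lower (13%) and 0 higher, with a median of -0.51. Besides CLSPN these were TICRR, which loads CDC45 at origins (5.61 and 5.95 against 7.64 and 7.90, 3.98-fold, adjusted p = 0.0114), and USP1, which removes ubiquitin from PCNA and FANCD2 (6.36 and 6.89 against 8.31 and 8.65, 3.62-fold, adjusted p = 0.0442). The kinases themselves did not pass: CHEK1 differed by -0.92 (adjusted p = 0.11), CHEK2 by -0.42 (adjusted p = 0.543) and ATR by 0.08 (adjusted p = 0.937). ATM was at 5.97 and 6.63 after Nutlin-3 and 6.36 and 6.62 after 5FU, so its groups overlapped (-0.18, 95% interval -0.76 to 0.39, adjusted p = 0.787). Without the single arrays Nutlin-3 replicate 1, Nutlin-3 replicate 2, 5FU replicate 1 or 5FU replicate 2, 0, 1, 1 or 0 of the 23 were called, and with quantile normalization 7. Together, 49 of the 102 called lower genes stood in the replication, mitosis, recombination or checkpoint lists. Other called lower genes of the cell cycle, such as CDK2, GMNN and MKI67, stood in none of the lists, so this count depends on list membership.

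Of 41 tested genes of pyrimidine, folate and fluoropyrimidine metabolism, 2 were called lower (4.88%) and 0 higher, with a median of -0.26. One was RRM2, at 8.59 and 8.70 after Nutlin-3 and 9.79 and 9.87 after 5FU (2.28-fold, adjusted p = 0.0355). The other was UNG, the glycosylase that cuts uracil out of DNA, at 7.16 and 7.44 against 8.39 and 8.63 (2.31-fold, adjusted p = 0.0342). TYMS, the thymidylate synthase that 5FU metabolites inhibit, was at 10.02 and 10.34 after Nutlin-3 and 10.44 and 10.59 after 5FU, a difference of -0.34 (95% interval -0.71 to 0.04, adjusted p = 0.429). Its groups did not overlap, but the gap between the nearest arrays was smaller than the gap between the Nutlin-3 replicates. Without Nutlin-3 replicate 1, Nutlin-3 replicate 2, 5FU replicate 1 or 5FU replicate 2 limma called 0 of the 41, and with the 4 drug arrays alone 1.

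No gene of the p53 target lists was called, which depends on the genes that these lists hold. In 4 such lists, limma called 0 of 20 in cell-cycle arrest, 0 of 23 in apoptosis, 0 of 12 feedback regulators and 0 of 35 in DNA repair and metabolism, with medians of -0.18, -0.18, 0.004 and -0.06. At an unadjusted p below 0.05 there were 5, 8, 1 and 3 lower and 1, 2, 0 and 4 higher. Over all 17841 genes there were 2377 in either direction. With quantile normalization 1, 1, 0 and 0 lower and 0, 1, 0 and 3 higher passed the adjusted threshold. CDKN1A was at 10.39 and 10.39 after Nutlin-3 and at 10.12 and 10.03 after 5FU, against 8.32 and 8.27 in the controls. The Nutlin-3 arrays were the higher ones, by 0.32 (95% interval 0.02 to 0.61, adjusted p = 0.351). MDM2, itself a p53 target and the protein bound by Nutlin-3, was at 10.26 and 10.67 against 10.04 and 10.31, and its groups overlapped (0.29, 95% interval -0.13 to 0.72, adjusted p = 0.55).

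Single p53 targets, picked after their values were seen, had values on either side of 0. Those with lower values after Nutlin-3 were the apoptosis gene PMAIP1 (-1.15, adjusted p = 0.101), the E2F repressor E2F7 (-0.998, adjusted p = 0.117), the death receptor FAS (-0.62, adjusted p = 0.236) and the phosphatase PPM1D (-0.54, adjusted p = 0.2). Those with higher values were the lipid transporter ABCA12 (0.98, adjusted p = 0.0824), the metalloreductase STEAP3 (0.60, adjusted p = 0.151) and the oxidoreductase TP53I3 (0.53, adjusted p = 0.148). The adjusted p-values miss the threshold, which does not show that the drugs act alike on these genes. The receptor tyrosine kinase MET was at 10.04 and 10.32 after Nutlin-3 and 10.06 and 10.29 after 5FU (0.003, 95% interval -0.55 to 0.56, adjusted p = 0.996).

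Of the inducible signalling genes, 4 were called lower after Nutlin-3 than after 5FU. In the NF-kappaB and inflammatory list 2 of 33 were called lower after Nutlin-3 (6.06%, against 0.572% of all genes), 0 higher, and the median was -0.17. Of the 33 differences 26 were below 0 and 7 above it, with 11 lower and 0 higher at an unadjusted p below 0.05. Over all 17841 genes there were 2377 in either direction. TNFAIP3, which encodes the NF-kappaB inhibitor A20, was at 5.87 and 5.81 after Nutlin-3 and 6.75 and 6.95 after 5FU (-1.01, adjusted p = 0.0462, and -0.66, which did not pass, with probe sets above the upper quartile). CXCL8, the chemokine interleukin-8, was at 5.81 and 5.86 against 6.73 and 6.84 (1.94-fold, adjusted p = 0.0377). With any 1 of the 6 arrays left out, with the 4 drug arrays alone, with all probe sets or with the median over probe sets, limma called 0 of this list, and with quantile normalization 4. In both genes the Nutlin-3 arrays lay at the level of the controls, which were at 6.02 and 5.78 for TNFAIP3 and at 5.76 and 5.83 for CXCL8.

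In the immediate early and AP-1 list 2 of 37 were called lower (5.41%, against 0.572% of all genes), 0 higher, and the median was -0.20. Of the 37 differences 30 were below 0 and 7 above it, with 11 lower and 0 higher at an unadjusted p below 0.05. JUN, a subunit of AP-1, was at 6.893 and 6.996 after Nutlin-3 and 8.15 and 8.23 after 5FU (2.38-fold, adjusted p = 0.0468), and CCN1, a matricellular growth factor, at 7.25 and 7.38 against 8.44 and 8.50 (2.23-fold, adjusted p = 0.0442). DUSP1 (-0.88, adjusted p = 0.0657), BIRC3 (-1.11, adjusted p = 0.0685) and NFKBIA (-0.87, adjusted p = 0.0838) did not pass. FOS (-0.27) and EGR1 (-0.11) were closer to 0. Limma called 0 of the 37 without Nutlin-3 replicate 1, Nutlin-3 replicate 2, 5FU replicate 1 or 5FU replicate 2, and 0 with all probe sets or the median over probe sets.

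Limma called 11 genes higher after Nutlin-3, but 0, 1, 0 or 0 without Nutlin-3 replicate 1, Nutlin-3 replicate 2, 5FU replicate 1 or 5FU replicate 2, and 5 with the 4 drug arrays alone. DHX32, a member of the DEAH helicase family, was at 7.71 and 8.23 after Nutlin-3 and at 5.68 and 6.21 after 5FU (4.08-fold, adjusted p = 0.0287). NTSR1, the neurotensin receptor, was at 8.70 and 8.81 against 7.17 and 7.15 (3.02-fold, adjusted p = 0.00944). CMTM4, a membrane protein that stabilises PD-L1, was at 8.46 and 8.73 against 7.18 and 7.44 (2.44-fold, adjusted p = 0.031). The controls, at 8.09 and 7.87 for DHX32, 8.403 and 8.553 for NTSR1 and 8.74 and 8.61 for CMTM4, lay near the Nutlin-3 arrays, and the 5FU arrays stood apart.

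The phosphodiesterase PDE9A, which degrades cyclic GMP, showed the same order, at 7.06 and 7.37 after Nutlin-3, 5.95 and 6.06 after 5FU and 7.48 and 7.42 in the controls (2.31-fold, adjusted p = 0.031). NEAT1, the long non-coding RNA on which paraspeckles are built, showed another: 10.07 and 10.47 after Nutlin-3, 9.06 and 8.96 after 5FU and 9.15 and 8.96 in the controls (2.4-fold, adjusted p = 0.0383). Here the Nutlin-3 arrays stood apart. DDIT4, an inhibitor of mTORC1, was at 8.87 and 9.22 after Nutlin-3 and at 7.86 and 8.03 after 5FU, both above the controls at 7.42 and 7.43 (2.15-fold, adjusted p = 0.0442).

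The other called higher genes were the lipid phosphatase PLPP6 (2.01-fold, adjusted p = 0.0332, on 3 probe sets), the mitotic kinase NEK6 (0.96, adjusted p = 0.0435, but 0.45, adjusted p = 0.468, with the median over its probe sets), the zinc transporter SLC39A11 (1.9-fold, adjusted p = 0.0499), PLEKHH1 (1.87-fold, adjusted p = 0.0435) and the olfactory receptor OR8D2, the last on 2 probe sets only. Among genes with at least 3 probe sets and no overlap of the groups, 2 that did not pass were next by size. They were the cystine transporter SLC7A11 (1.61, adjusted p = 0.0788) and the sialyltransferase ST6GAL1 (1.19, adjusted p = 0.0873). The largest upward difference of any gene, 2.11, was in a gene outside these limits that did not pass. DDIT4 was the 1 called among 38 genes of the integrated stress and unfolded protein responses, where the median was 0.06. With quantile normalization 8 of the 38 were called higher, and without Nutlin-3 replicate 1, Nutlin-3 replicate 2, 5FU replicate 1 or 5FU replicate 2 limma called 0 of this list and 0 of the next. NEAT1 was the 1 called member of 15 microRNA and small nucleolar RNA host genes and other non-coding RNAs, where the median was -0.24.

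In 8 further lists limma called 0 genes in either direction. The medians were -0.27 for 57 pre-mRNA splicing factors, -0.24 for 24 RNA exosome genes, -0.23 for 55 interferon-stimulated genes, -0.21 for 60 mitochondrial ribosomal proteins, -0.16 for 30 genes of cholesterol and fatty-acid synthesis, -0.15 for 54 of ribosome biogenesis, -0.08 for 53 cytosolic ribosomal proteins and -0.07 for 40 of autophagy and the lysosome. At an unadjusted p below 0.05 there were, in the same order, 18, 3, 10, 4, 6, 7, 0 and 1 lower and 1, 0, 0, 1, 1, 1, 1 and 1 higher. Over all 17841 genes there were 2377 in either direction. Of the genes in these 8 lists the sterol gene ACAT2 lay farthest from 0 (-1.16, adjusted p = 0.0886).

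Within genes, most probe sets followed the gene. The 102 called lower genes had 1769 probe sets above the filter, and in 1585 of them (89.6%) both Nutlin-3 arrays lay below both 5FU arrays, against 22.5% of all 268126 probe sets. The 11 called higher genes had 168, of which 142 (84.5%) had both Nutlin-3 arrays above both 5FU arrays, against 20.3% of all. These probe sets make up the gene values that were called, so the shares describe the genes and support nothing. In genes that had 5 or more probe sets, the SD of the difference over a gene's probe sets had a median of 0.738 in called lower, 0.632 in called higher and 0.331 in all genes.

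**Figure D4:**
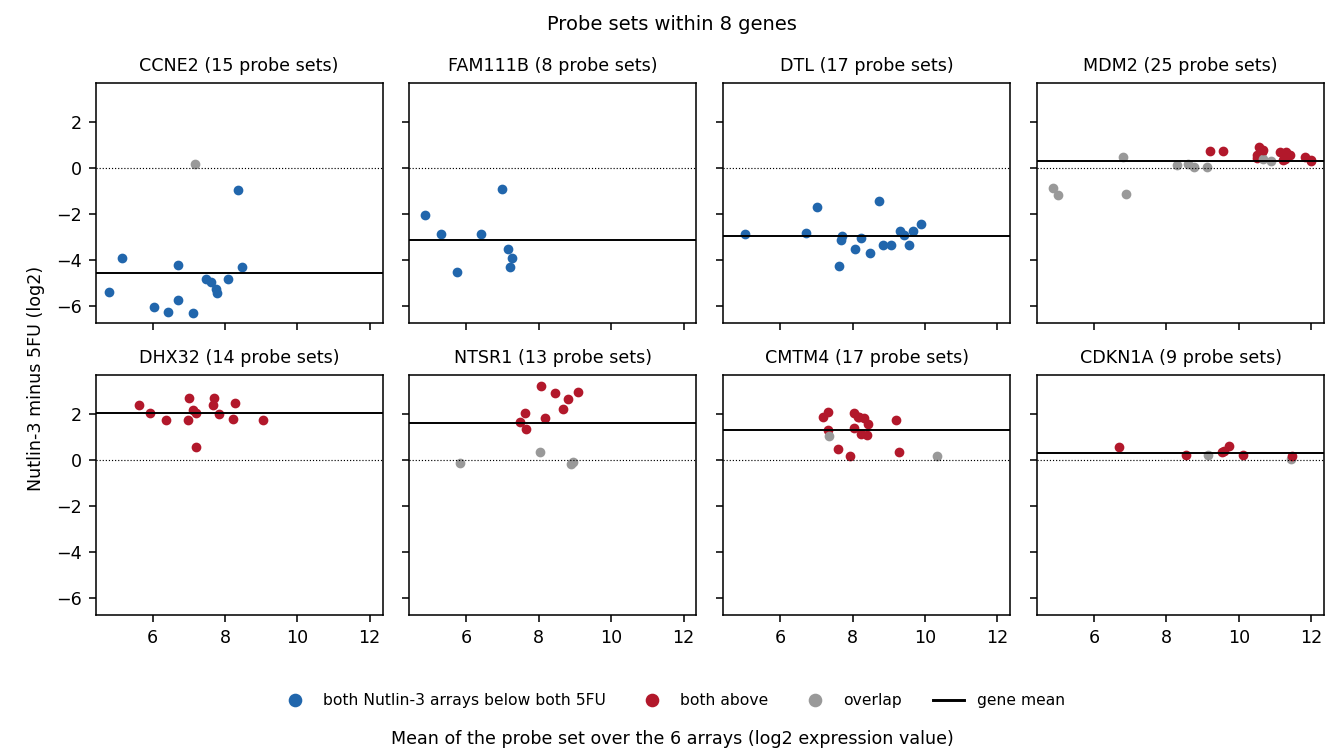
Nutlin-3 minus 5FU (log2, vertical) of each probe set of 8 genes against its mean over the 6 arrays (log2 expression value, horizontal), with the gene's difference as a solid line. All 17 probe sets of DTL lie below 0 and all 14 of DHX32 above it, whereas 1 probe set of CCNE2 and 4 of NTSR1 lie apart from the others near 0.

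In CCNE2, 14 of 15 probe sets were lower after Nutlin-3 on both arrays, the farthest being 3145118, at 2.80 and 4.39 after Nutlin-3 and 9.67 and 10.06 after 5FU (-6.27). Probe set 3145132 was at 7.44 and 7.06 against 7.19 and 6.93 (0.19), and 3145126 at 7.95 and 7.93 against 8.77 and 9.01 (-0.95). Both were well above the filter on every array, yet far from the gene's difference. Relative to the gene mean they deviated by 4.73 and 3.58 (adjusted p = 0.192 each); with trend and robust variances limma called these 2 probe sets and no other.

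DTL ranged from -4.23 to -1.41 over 17 probe sets, FAM111B from -4.53 to -0.92 over 8 and DHX32 from 0.55 to 2.70 over 14, each with all probe sets on the same side of 0. NTSR1 split: 9 of 13 probe sets were higher on both Nutlin-3 arrays, up to 3.22 for probe set 3892892, while the other 4 overlapped, down to -0.18 for 3892875. CMTM4 ranged from 0.15 to 2.08. CDKN1A ranged from 0.05 to 0.59 over 9 probe sets, and MDM2 from -1.17 for probe set 3421313 to 0.92 for 3421307 over 25, with 15 of them higher on both Nutlin-3 arrays. Positions of these probe sets within exons are not given because no table used here holds them.

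Each probe set was then set against the mean of its gene on the same array, so that a difference in one stretch of a transcript stands out from a difference of the whole gene. Limma called 0 of 268126 probe sets (0%) for a deviation that differed between the drugs. At an unadjusted p below 0.05 there were 17699, and the smallest adjusted p was 0.192. Limma's diffSplice, which takes a single variance for all probe sets of a gene, called 925 of the 268126 in 753 genes. Of the 925, 142 were in the 113 genes called for their level. Those genes held only 1769 (called lower) and 168 (called higher) of the 268126 probe sets. Here only probe sets in genes whose level differed by less than 0.5 are named. None of the 16 passed limma's test of single probe sets. Of them, diffSplice called 15, with adjusted p-values of 2e-09 for LRRC41 and 2.29e-10 for MSI2, and not STAM2 (adjusted p = 0.0694). The 16 were picked for large deviations in these same data, so the 15 calls are no support for them. Among the 15 were NOB1, RPL4, CLOCK and RBFOX2, whose deviations rested on 1 array, as given below.

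**Figure D5:**
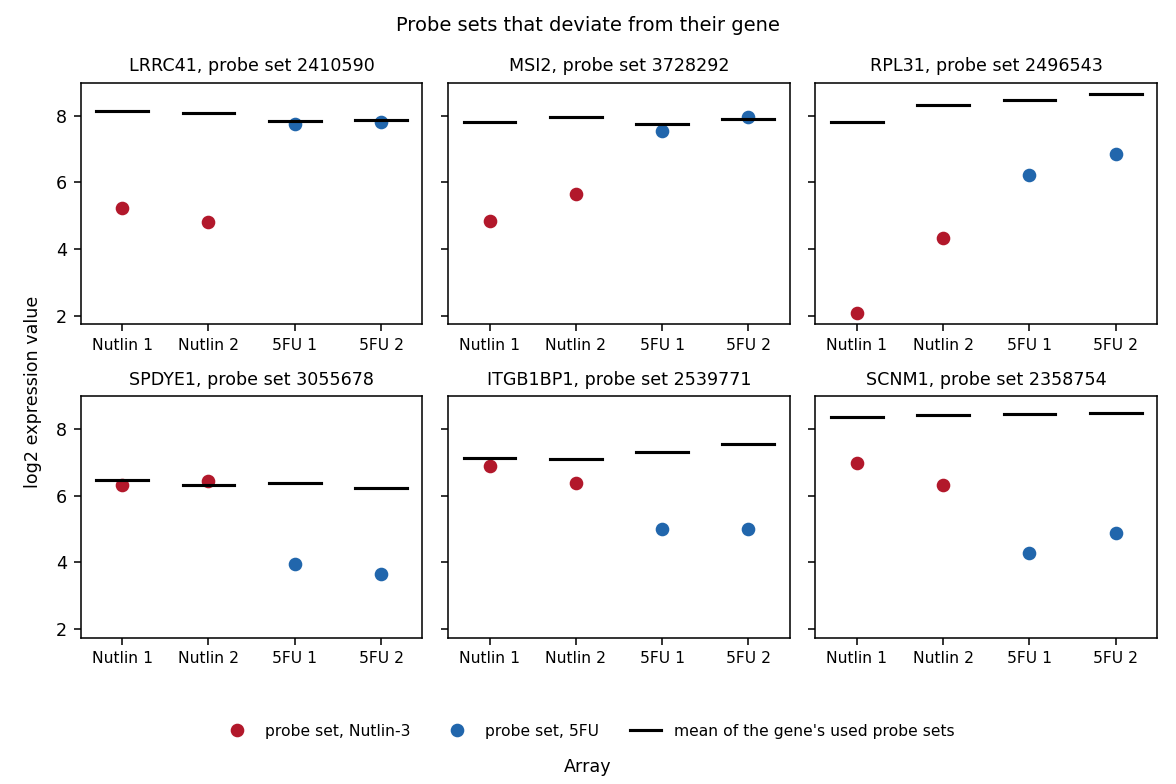
Level of a probe set (points) and mean of its gene's probe sets (black bars) on each of the 4 drug arrays (log2 expression value, vertical), for the 3 named probe sets of smallest p in each direction. The bars differ little between the drugs, while the points of LRRC41 and MSI2 lie under the bar after Nutlin-3 and those of SPDYE1 and ITGB1BP1 under it after 5FU.

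Among named probe sets, that of LRRC41, a substrate adaptor of ubiquitin ligases, had the largest deviation toward lower values after Nutlin-3. Its probe set 2410590 was at 5.23 and 4.82 after Nutlin-3 and 7.75 and 7.82 after 5FU, while the gene mean stayed at 8.12 and 8.09 against 7.83 and 7.87. The deviation was -3.02 ± 0.22 (SE, adjusted p = 0.192), and the controls, at 6.04 and 5.66, lay between the drugs. Probe set 3728292 of MSI2, an RNA-binding protein of stem cells, was at 4.84 and 5.65 against 7.53 and 7.97 with gene means between 7.74 and 7.94 (-2.56 ± 0.31, adjusted p = 0.403).

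In the opposite direction, probe set 3055678 of SPDYE1, one of many near-identical Speedy genes, was at 6.31 and 6.45 after Nutlin-3 and 3.95 and 3.66 after 5FU (2.49 ± 0.24, adjusted p = 0.343). Probe set 2539771 of ITGB1BP1, which binds the tail of integrin beta 1, was at 6.89 and 6.37 against 4.99 and 5.01 (1.95 ± 0.24, adjusted p = 0.403). In both, the 5FU arrays were low and the gene means were not. SCNM1, a splicing factor, followed with 2.15 ± 0.31 (adjusted p = 0.413), at 6.98 and 6.32 against 4.27 and 4.89.

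Several of the other large deviations rested on 1 array. In the probe sets of NOB1, RPL4, RBFOX2 and CLOCK, Nutlin-3 replicate 1 was at 2.36, 2.53, 1.65 and 3.35, and Nutlin-3 replicate 2 at 5.63, 6.37, 5.63 and 6.94. Their deviations were -2.93, -2.90, -2.62 and -2.72, and without Nutlin-3 replicate 1 they became -1.46, -1.08, -0.74 and -1.14. RPL31 went from -2.84 to -1.96 and TBL1X from -2.66 to -1.54, whereas LRRC41 stayed at -3.21 and MSI2 at -2.22. The other higher deviations were in WTAP (2.35), ALDH4A1 (2.27), STAM2 (2.13), PDE4DIP (2.02) and PYROXD2 (2.00), with standard errors from 0.441 to 0.899. Without 5FU replicate 2, ALDH4A1 became 1.19 and PDE4DIP 1.11, without 5FU replicate 1 WTAP became 1.56, and without Nutlin-3 replicate 1 STAM2 became 1.40.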

How the data were processed

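Values of 6 arrays were taken from the authors' deposited table of 1411399 probe sets as log2 expression values, made with RMA per the submitters' processing notes; RMA settings and scan batches are not stated there, and the genome build is not given in the sources used. The platform annotation gave 357604 probe sets 1 gene symbol, 15322 several and 1038473 none. Of 19560 symbols, 16472 were current in RefSeq, 2966 were updated through a synonym and 122 were kept. Only probe sets with 1 symbol were used, with a mean over the 6 arrays above 4.73 (268126 probe sets, a median of 12 per gene), and a gene's value was their mean. No depth exists for arrays, and 2 arrays per group limit the precision.

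Group means were fitted to all 6 arrays with limma 3.58.1 in R 4.3.3 (lmFit, eBayes, 3 residual degrees of freedom, 7.02 after moderation), and p-values were adjusted by Benjamini-Hochberg over all genes or all probe sets. Intervals are at 95%. A probe set's deviation was its value minus its gene's mean on the same array. The scripts were tested on simulated data.

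Named were the 12 genes of largest difference each way with at least 3 probe sets and no overlap of the groups. Called genes came first, and the next by size followed where fewer were called. Also named were up to 4 called genes per list, and MDM2, CDKN1A, CCNE2, TYMS, ATM and MET. Named probe sets were the 8 of largest deviation each way, without overlap of the deviations, in genes with at least 5 probe sets that differed by under 0.5. Genes, lists and tests were chosen with earlier results of these data known. Alternatives were the samples fitted, a replicate block, leaving out each array, variance settings, scaling, the probe-set filter and summary, and diffSplice. Probe-set positions were not used here.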

Additional observations from a re-analysis of the deposited data

How the results depend on the processing

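The 36 named genes that were called kept their direction under all alternatives in which they were tested. Leaving out an array could not change a direction, because the groups of these genes did not overlap. The variance settings, the replicate blocks and the 4 drug arrays alone leave the difference itself unchanged. Only scaling, the probe-set filter and the summary over probe sets could have changed a direction. The count of 113 called genes ranged from 3 to 104 when 1 array was left out, 104 being also the count from the 4 drug arrays alone. It was 297 with arrays centred on their medians, 416 with quantile normalization, 234 with probe sets above the upper quartile, and 69 both with all probe sets of a gene and with the median over probe sets. Trend and robust variances gave 100, and at least 4 probe sets per gene 124. For deviations of probe sets from their gene, trend and robust variances gave 2 calls and diffSplice 925, and leaving out an array gave 0. With 1 array left out, ATM ranged from -0.52 (without Nutlin-3 replicate 2) to 0.15 (without Nutlin-3 replicate 1). MET ranged from -0.14 (without Nutlin-3 replicate 2) through -0.12 (without 5FU replicate 1) to 0.14 (without Nutlin-3 replicate 1), and was -0.009 with all probe sets. ATM and MET passed in none of these, and the cause of these changes was not tested.

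The labels share replicate numbers but do not say that these pair the samples. With the number as a replicate block over 6 arrays limma called 0 genes, with 1821 at an unadjusted p below 0.05. Deviations of replicate 1 correlated at 0.634 between Nutlin-3 and 5FU, at -0.565 between control and Nutlin-3 and at -0.525 between control and 5FU. Blocks chosen after seeing the data gave 3573 calls for the 4 drug arrays alone and 2821 for 6 arrays with the control numbers crossed. The Nutlin-3 means of CCNE2 and FAM111B were below the filter, and an effect of background on their sizes was not tested. Probe sets of called lower genes with means from 1.62 to 4, which do not enter the gene values, had a median difference of -0.58. Those that enter them had -1.64 with means from 4.73 to 5.99 and -1.65 from 7.01 to 8.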

Other observations

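Of the 113 called genes, 57 stood in none of the gene lists, and those named here were chosen after their values were seen. The kinase MASTL, which holds back a phosphatase during mitosis, was at 5.16 and 5.95 after Nutlin-3 and 7.48 and 8.05 after 5FU (4.64-fold, limma adjusted p = 0.0417). CDK2, the kinase partner of cyclin E, was at 8.32 and 8.62 against 9.97 and 10.25 (3.11-fold, adjusted p = 0.0164). GMNN, which blocks relicensing of origins, was at 7.32 and 7.58 against 8.92 and 9.22 (3.08-fold, adjusted p = 0.0439), and the proliferation marker MKI67 at 7.41 and 7.92 against 9.16 and 9.40 (3.07-fold, adjusted p = 0.0343). The mismatch repair gene MSH6 differed 3.23-fold (adjusted p = 0.0468). In all of these the 5FU arrays lay close to or above the controls.

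The cytokine receptor gene IL17RB was at 5.93 and 6.09 after Nutlin-3 and 7.64 and 7.81 after 5FU (3.29-fold, adjusted p = 0.0231), and the homeobox gene LHX2 at 6.36 and 6.69 against 7.91 and 7.97 (2.68-fold, adjusted p = 0.0191). The transcription factor ETS1 was at 6.10 and 6.23 against 7.26 and 7.74 (2.52-fold, adjusted p = 0.0435). For each of these 3 genes the controls lay between the drugs. HBEGF, a ligand of the EGF receptor, was at 7.59 and 7.58 against 8.48 and 8.62, with both drugs above the controls at 7.17 and 7.04 (1.95-fold, adjusted p = 0.0417). BCYRN1, a non-coding RNA related to Alu repeats, was at 10.07 and 10.08 against 11.33 and 11.41 on 4 probe sets (2.45-fold, adjusted p = 0.0149), which may also bind other Alu sequence. ARHGAP11B and DDX12P have near-identical copies elsewhere, so their values are uncertain.

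Isolated probe sets were high on 1 array. Probe set 3419473 of RPL14 was at 15.99 on 5FU replicate 1 and at 13.08 to 13.29 on the others. Probe set 3803362 of GAREM1 was at 16 on 5FU replicate 2 and at 13.55 to 13.74 on the others, and a probe set with no gene name, 3848795, was at 16 on 5FU replicate 2 and at 6.17 to 6.61 on the others.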
